A study of Rattus norvegicus with 6 samples.

Results

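The genes that make, carry, sense and destroy retinoic acid were examined in the maternal thyroid of the rat. The set held 9 genes, taken by symbol from the 15388 genes of the count tables: the retinoic acid hydroxylase Cyp26b1, the retinal dehydrogenases Aldh1a1 and Aldh1a2, the plasma retinol carrier Rbp4, the cellular carriers Crabp1 and Crabp2, and the receptors Rara, Rarb and Rarg. All 9 were present. The set was chosen by pathway with the measured fall of Cyp26b1 from NP to LP already known, so the differences of these 9 genes between the groups are given as a description, with no p-value.

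Poly(A)+ RNA from whole thyroid tissue of adult Sprague-Dawley rats was sequenced in 2 groups, non-pregnant rats (NP) and rats on day 18 of pregnancy (late pregnancy, LP, the day of the vaginal plug being day 1), with 3 libraries in each. No treatment or transgene was involved, and the groups differ, by their labels, in pregnancy alone. In bulk tissue, fewer cells of a type and less RNA per cell cannot be told apart. The values are raw numbers of reads per gene, or counts per 1000000 reads (CPM) scaled by the trimmed mean of M-values (TMM), which sets the libraries level on genes that change least. Ratios of LP to NP given within replicate 1, or within replicates 2 and 3, use library totals instead of TMM.

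Retinol travels in plasma on RBP4, enters cells partly through STRA6, and is oxidized to retinal by retinol dehydrogenases such as RDH10. The ALDH1A enzymes then oxidize retinal to retinoic acid in an irreversible step. CRABP proteins bind retinoic acid in the cytoplasm, and CYP26 enzymes hydroxylate it for removal. In the nucleus it binds the receptors RARA, RARB and RARG, which pair with retinoid X receptors (RXR) on response elements of DNA. Retinoic acid is known to influence iodide uptake of cultured thyroid cells.

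The proximal promoters of the 9 genes were searched for the kind of sequence these receptor pairs bind, a direct repeat of a 6-base core. RefSeq entries for all 9 genes were matched (10 entries, Rarg having a pair of starts), each spanning 250 bases before and 50 after a start on assembly GRCr8. The cores searched on both strands were AGGTCA with its variant AGTTCA and the core GGGTCA with its variant GGTTCA, and repeats had a spacer of 1 (DR1), 2 (DR2) or 5 bases (DR5). A core, whether or not in a repeat, was found in 4 of the 10 entries, against 44.4% of all 33469 rat promoters. Of the 9 genes, Rarb alone held a repeat, a DR5, which 0.382% of all promoters hold, against 0.233% for DR1 and 0.170% for DR2. The promoter of Cyp26a1, the relative of Cyp26b1 that is described further on, held a DR5 as well. Both are shown because Rarb and Cyp26a1 are textbook examples of genes with such an element, with the 2 cores of each repeat in capitals. The Rarb window lies at chr15:11336410-11336438 (plus strand, the repeat from base 25 to base 41 after the start) and the Cyp26a1 window at chr1:244883724-244883752 (plus strand, the repeat from -92 to -76, with the cores read on the opposite strand).
Rarb: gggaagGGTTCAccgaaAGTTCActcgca
Cyp26a1: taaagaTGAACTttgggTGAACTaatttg
For Cyp26b1, the gene that fell, the 250 bases before the start (chr4:118616177-118616426, minus strand) held 0 cores and are therefore all in lower case.
Cyp26b1: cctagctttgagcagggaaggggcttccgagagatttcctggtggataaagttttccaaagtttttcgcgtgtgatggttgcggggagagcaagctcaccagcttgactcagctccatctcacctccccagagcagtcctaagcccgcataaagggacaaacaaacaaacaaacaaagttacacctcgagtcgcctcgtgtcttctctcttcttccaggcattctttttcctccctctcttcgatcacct
A match is a description of letters and not a binding site. The lack of a match in this window says nothing of elements elsewhere.

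The libraries summed to between 2752144 and 2965936 reads in NP and between 3224104 and 3449857 in LP, and 3 reads, the smallest level taken as detectable, corresponded to between 0.870 and 1.09 CPM. Replicates 2 and 3 of a group differed by no more than sampling noise (chi-square per degree of freedom 1.02, p = 0.111, in NP and 0.995, p = 0.667, in LP). They were therefore summed and counted as 1 sample, so that each mean ± SD has n = 2. The same measure for replicate 1 against either of the others of its group lay between 3.70 and 4.11. Tissue was collected from 3 rats per group, but which library came from which rat is not stated, so p-values may measure technical spread. Thyroid follicular markers were high in every library, the sum of 7 of them, including Tg, Tshr, Slc5a5 and Pax8, lying between 231414 and 258292 CPM. C cell markers summed to between 13966 and 14954 CPM in NP and between 12346 and 13125 in LP, and parathyroid markers to between 4474 and 4848 and between 3730 and 4045. Of the C cell markers, Calca had fewer reads in LP. Chga had more (16782, 17056 and 16847 in NP, 18589, 18594 and 18634 in LP), but by less than the library totals rose. Of the parathyroid markers, Pth fell from 12534, 12629 and 12633 reads in NP to 11375, 11334 and 11356 in LP. Gcm2 (241, 220 and 251 reads in NP, 297, 296 and 302 in LP) and Casr had more reads in the deeper LP libraries. The 7 skeletal muscle markers in the tables summed to between 12.6 and 65.4 CPM in NP and between 2111 and 2236 CPM in LP, with Myh1 and Mylpf at 0 reads in NP. Endothelial markers lay between 321 and 329 CPM in NP and between 265 and 277 in LP, and airway markers between 70.5 and 74.6 and between 81.2 and 87.5. Tek and Kdr had fewer reads in LP, while Cdh5 overlapped (183, 251 and 211 reads in NP, 228, 245 and 249 in LP). Of the airway markers, Sftpd had the most reads and overlapped between groups (201, 213 and 196 in NP, 204, 199 and 215 in LP). Scgb3a1 (2, 2 and 4 reads in NP, 28, 26 and 34 in LP), Bpifa1 and Scgb1a1 had more reads in every LP library. Adipocyte markers (between 108 and 130 CPM in NP and between 115 and 146 in LP) and macrophage markers (between 95.2 and 114, and between 112 and 130) overlapped between the groups. The part of these cell types in the differences given here was not tested.

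Of the 9 genes, Cyp26b1 was lower and Aldh1a1 and Rbp4 were higher in every LP library than in every NP library, while the values of the other 6 overlapped between the groups. Among all 12326 genes tested, 39.4% did not overlap (21% with LP higher and 18.4% with LP lower). In edgeR's quasi-likelihood fit, 8 of the 9 genes passed the filter on low counts, Crabp2 being below it, and 2 of the 8 changed more than 2-fold at an adjusted p-value below 0.05, Cyp26b1 downward and Aldh1a1 upward. The share of all genes past these criteria was 5.43%. Since this contrast was known when the genes were chosen, nothing is read from that count. The median log2 fold change was 0.056 over the 8 genes and -0.011 over all genes tested.

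**Figure D1:**
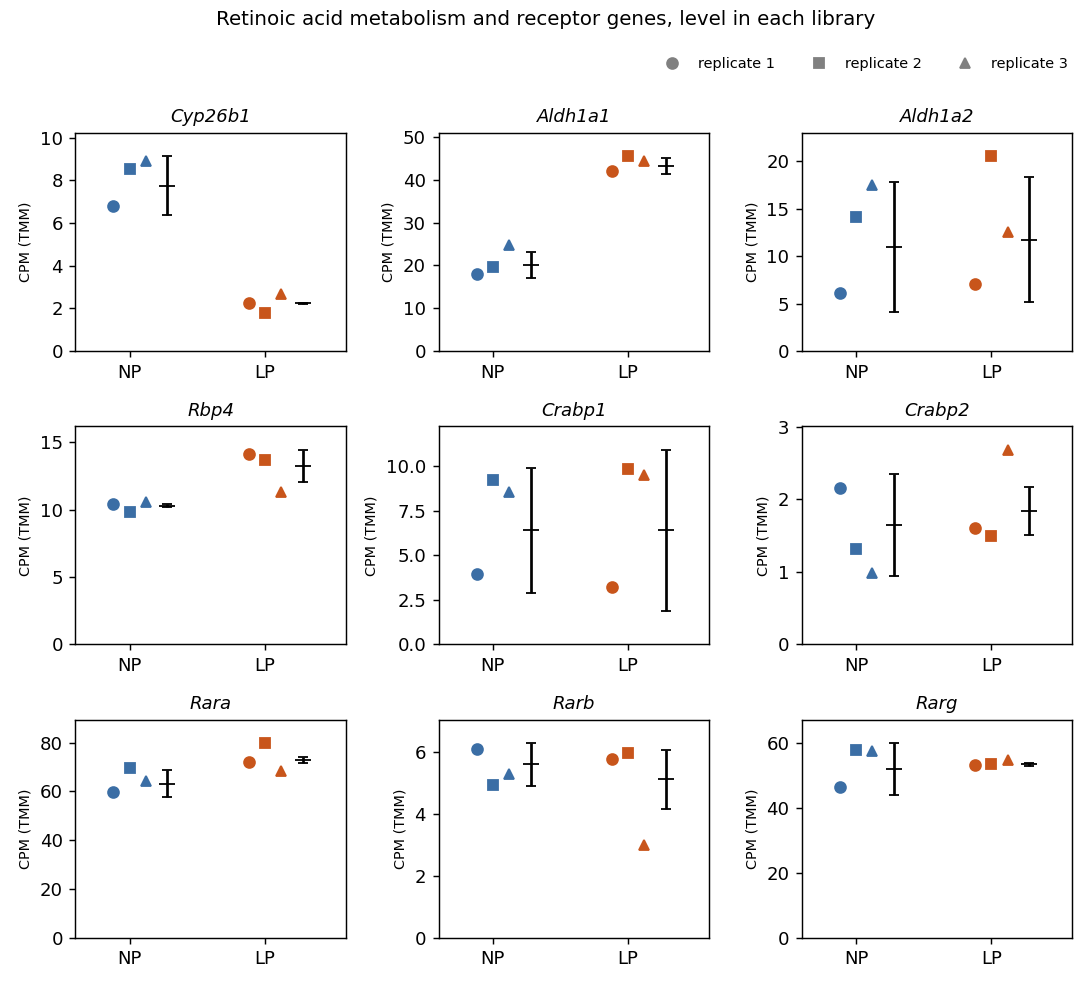
Level of the 9 genes in each library, in CPM with TMM scaling (y axis, from 0), for NP (blue) and LP (orange), with marker shape for the replicate number and, beside each group, the mean ± SD over n = 2 samples (replicate 1, and replicates 2 and 3 summed). Cyp26b1 lies lower and Aldh1a1 and Rbp4 higher in all 3 LP libraries, whereas Aldh1a2 and Crabp1 are lowest in replicate 1 of both groups.

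Cyp26b1 clears retinoic acid and was the member that fell. Over replicates 1, 2 and 3 in that order, as for all genes here, it had 19, 26 and 27 reads in NP rats and 7, 6 and 9 in LP rats. All 3 LP libraries were below all 3 NP libraries. The mean was 7.75 ± 1.37 CPM (SD, n = 2) for NP and 2.23 ± 0.019 CPM for LP, a 3.56-fold lower level and a log2 fold change of -1.83 with a standard error (SE) of 0.33. The SD in LP is smaller than the counting error of so few reads. Within replicate 1 the LP level was 0.314 times the NP level, and within replicates 2 and 3 it was 0.243 times. The gene was no longer called with DESeq2 in place of edgeR, at a log2 fold change of -1.81.

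Of the other Cyp26 genes, Cyp26a1 was split by replicate number and Cyp26c1 was too low to be compared. Cyp26a1, the family member known as a strongly retinoic acid-inducible hydroxylase, had 0, 54 and 39 reads in NP rats and 0, 65 and 61 in LP rats. It was thus not detected in replicate 1 and was detected in replicates 2 and 3 of both groups. Its LP level was 1.16 times the NP level within replicates 2 and 3, and its log2 fold change over all libraries was 0.26 (SE 0.88, adjusted p = 0.889, edgeR). Cyp26c1 had at most 2 reads in any library, at or under the detectable level.

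Aldh1a1, which oxidizes retinal to retinoic acid, was the member that rose. Its reads were 50, 60 and 75 in NP and 131, 153 and 149 in LP. The groups were well apart, the highest NP library lying at 24.7 CPM and the lowest LP library at 42.0 CPM. The mean was 20.03 ± 3.08 CPM (SD, n = 2) for NP and 43.3 ± 1.9 CPM for LP, with a log2 fold change of 1.08 (SE 0.13). This value lies close to the 2-fold limit. It was 0.97 without NP replicate 1, where the gene was no longer past the criteria. Scaled to library totals, the LP level was 2.24 times the NP level within replicate 1 and 1.92 times within replicates 2 and 3. These ratios are not on the TMM scale of the log2 fold change.

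Aldh1a2, the retinal dehydrogenase best known from the embryo, had 17, 43 and 53 reads in NP rats and 22, 69 and 42 in LP rats. Its lowest library was replicate 1 in both groups, and the groups overlapped. Its mean level was 10.9 ± 6.9 CPM (SD, n = 2) for NP and 11.7 ± 6.6 CPM for LP, with a log2 fold change of 0.079 (SE 0.38). Its sign was not stable. It was -0.31 without LP replicate 2 and -0.29 without NP replicate 1, and 0.42 without LP replicate 1.

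Rbp4, the plasma carrier of retinol, had 29, 30 and 32 reads in NP rats and 44, 46 and 38 in LP rats. All LP libraries lay above all NP libraries, by a small margin for LP replicate 3 (11.3 CPM against 10.5 CPM in NP replicate 3). The level was 10.3 ± 0.11 CPM (SD, n = 2) for NP and 13.3 ± 1.2 CPM for LP, with a log2 fold change of 0.35 (SE 0.20), which was not past the criteria. As for Cyp26b1 in LP, the SD of Rbp4 in NP is smaller than the counting error of so few reads. Rbp4 is a product of fat as well as liver, and the adipocyte markers overlapped between the groups. The part of fat cells in the Rbp4 value was not tested.

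The carriers that bind retinoic acid inside cells showed no separation by group. Crabp1 had 11, 28 and 26 reads in NP rats and 10, 33 and 32 in LP rats. Replicate 1 was the lowest library in both groups. The level was 6.41 ± 3.50 CPM (SD, n = 2) for NP and 6.40 ± 4.53 CPM for LP, with a log2 fold change of 0.033 (SE 0.43) that ranged, on leaving out single libraries, from -0.28 (without NP replicate 1) to 0.43 (without LP replicate 1). Crabp2 had 6, 4 and 3 reads in NP rats and 5, 5 and 9 in LP rats, near the detectable level, and its log2 fold change without the filter was 0.35 (SE 0.56).

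The 3 receptors, which act as ligand-dependent transcription factors, overlapped between the groups. Rara had 166, 212 and 195 reads in NP rats and 225, 268 and 230 in LP rats. NP replicate 2 (69.7 CPM) was above LP replicate 3 (68.5 CPM), and the log2 fold change was 0.19 (SE 0.081). Rarg had 130, 176 and 175 reads in NP rats and 166, 180 and 184 in LP rats, with a log2 fold change of 0.0020 (SE 0.10), and of -0.11 without NP replicate 1. The lowest of its 6 libraries was NP replicate 1 at 46.6 CPM, and the other 5 lay between 53.2 and 57.9 CPM. Rarb, whose DR5 is printed above and whose gene is a textbook target of retinoic acid, had 17, 15 and 16 reads in NP rats and 18, 20 and 10 in LP rats, a log2 fold change of -0.15 (SE 0.31) that was 0.097 without LP replicate 3. Its lowest and second lowest libraries were LP replicate 3 (2.98 CPM) and NP replicate 2 (4.93 CPM). Transcript lengths were not available here, so levels are not compared between genes.

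Aldh1a2, Crabp1 and Cyp26a1 differed more by replicate number than by group, on counts scaled to library totals. Of the 8 genes with a mean of at least 10 reads, 2 were more than 2-fold higher in replicates 2 and 3 than in replicate 1 in both groups, against 0.848% (99) of the 11680 genes at this level, while 0 genes were more than 2-fold lower in both. Crabp1 was 2.28-fold higher in NP and 3.04-fold higher in LP, and Aldh1a2 was 2.62-fold and 2.36-fold higher. The ratio for the other 6 genes lay between 0.779 and 1.30.

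Cyp26a1 was at least 14.4-fold higher in NP and at least 19.6-fold higher in LP, with 3 reads taken as the limit for a library of 0. It was 1 of 3 genes with 0 reads in both replicate 1 libraries and at least 20 reads in each of the other 4, the others being Igfbp1, a secreted binding protein of insulin-like growth factors, and the skeletal muscle actin Acta1. In replicates 2 and 3, Igfbp1 had 127 and 109 reads (NP) and 151 and 151 reads (LP), and Acta1 had 166 and 144 reads (NP) and 186 and 185 reads (LP). Other genes moved with the replicate number in the same way. Hoxa11, Hoxd9, Hoxd10, Emx2, Wt1, Osr2 and Igfbp1, chosen after their values were seen and known from the development or function of the reproductive and urinary tract, together had 5, 242 and 226 reads in NP rats and 6, 285 and 267 in LP rats. The fibroblast markers summed to 1174, 2101 and 2048 CPM in NP and 1431, 2367 and 2285 CPM in LP. Col1a1 had 850, 2724 and 2478 reads in NP rats and 1552, 3540 and 3356 in LP rats, and Col3a1 and Pdgfra were also lowest in replicate 1. Lum differed little by replicate number (178, 193 and 191 reads in NP rats), and Col1a2 had at most 3 reads. The part of these genes and cells in the values of Cyp26a1, Crabp1 and Aldh1a2 was not tested.

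**Figure D2:**
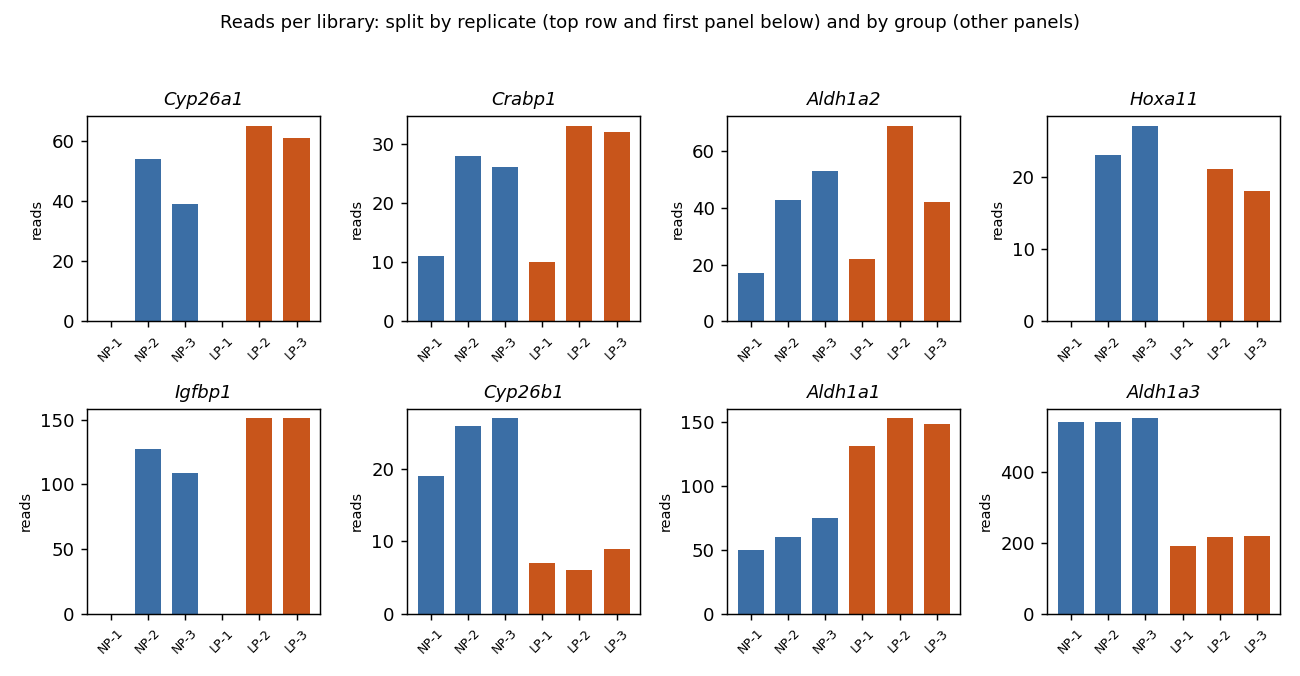
Reads per library (y axis, from 0) for 8 genes, with NP in blue and LP in orange. Cyp26a1, Hoxa11 and Igfbp1 have 0 reads in replicate 1 and Crabp1 and Aldh1a2 their lowest values there in both groups, whereas Cyp26b1, Aldh1a1 and Aldh1a3 divide by group.

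The rest of the retinoid pathway was described from a list of 60 genes, of which 50 were in the tables and 37 passed the filter on low counts. By edgeR's adjusted p-value alone, at the limit of 0.05, 5 of the 37 rose, 4 fell and 28 did not pass. Among all genes tested 20.6% passed this limit, 12.3% upward and 8.36% downward. With the replicate number as a block, 7 of the 37 rose and 7 fell, among 29.5% of all genes. With a fold change above 2 required as well, 2 rose (Rxrg and Cyp1b1) and 1 fell (Aldh1a3), against 4.92% and 0.511% of all genes. The median log2 fold change of the 37 genes was 0.17. The list was written after the published table of changed genes had been read, so the direction of these genes is not independent evidence.

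**Figure D3:**
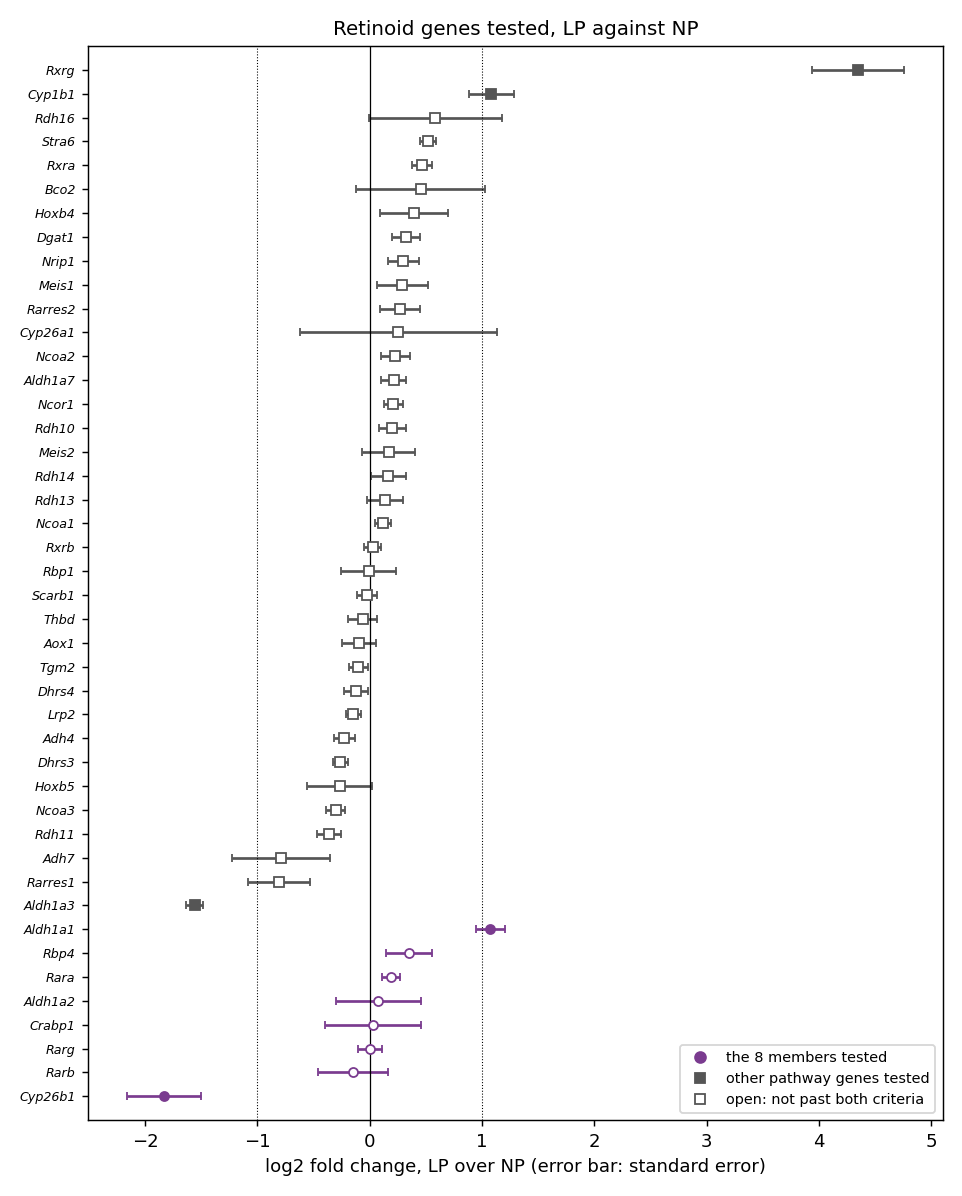
Log2 fold change of LP over NP (x axis) with its standard error for the 8 members tested (purple circles) and the other pathway genes tested (grey squares, 1 not shown), with dotted lines at a 2-fold change. Filled symbols are past both criteria: Cyp26b1 and Aldh1a3 on the left, Aldh1a1, Cyp1b1 and Rxrg on the right.

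Among the enzymes that oxidize retinal, the third ALDH1A enzyme moved opposite to Aldh1a1. Aldh1a3 had 541, 539 and 550 reads in NP rats and 190, 216 and 220 in LP rats, and every LP library lay far below every NP library. It fell from a mean of 186 ± 9.9 CPM (SD, n = 2) to one of 62.7 ± 2.5 CPM, with a log2 fold change of -1.56 (SE 0.078, adjusted p = 4.82e-08, edgeR). Within replicate 1 the LP level was 0.300 times, and within replicates 2 and 3 it was 0.344 times, the NP level. Cyp1b1, a cytochrome P450 that can also form retinoic acid, had 20, 31 and 23 reads in NP rats and 56, 57 and 60 in LP rats, and rose by a log2 fold change of 1.08 (SE 0.20, adjusted p = 0.00245, edgeR). It was not called with DESeq2 (adjusted p = 0.0627) or without NP replicate 1 (log2 fold change 0.98), its adjusted p-value being below 0.05 in that last setting.

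Of the genes of uptake, storage and interconversion that passed the filter on low counts, none reached a 2-fold change. Stra6, the membrane receptor for RBP4, had 186, 214 and 205 reads in NP rats and 292, 336 and 342 in LP rats. It rose 1.43-fold (adjusted p = 0.000400, edgeR), and its adjusted p-value stayed below 0.05 in all 14 alternative analyses. Lrp2, an endocytic receptor and the most counted gene of the uptake group, had 1462, 1502 and 1521 reads in NP rats and 1471, 1479 and 1564 in LP rats, a log2 fold change of -0.15 (adjusted p = 0.146, edgeR). With the replicate number as a block, at the same fold, the adjusted p was 0.000658, and for the 6 libraries as deposited it was 0.0433. Dhrs3, which reduces retinal back to retinol and was the most counted gene of its group, fell by 0.26 on the log2 scale (adjusted p = 0.0188, edgeR), and Rdh11, a retinal reductase, fell by 0.36 (adjusted p = 0.0330, edgeR). Both were lost with DESeq2 and without some of the libraries. Stra6, Rdh11 and, below, Ncoa3 and Rarres1 were named after their values were seen.

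Among the partners of the receptors, Rxrg stood apart. It had 1, 2 and 4 reads in NP rats and 63, 46 and 49 in LP rats, a log2 fold change of 4.35 (SE 0.41, adjusted p = 1.19e-05, edgeR). Rxrg is an RXR of skeletal muscle among other tissues, and the skeletal muscle markers were higher in the same LP libraries. Their part in the Rxrg value was not tested. Rxra had 132, 119 and 133 reads in NP rats and 188, 194 and 213 in LP rats and rose 1.38-fold (adjusted p = 0.00356, edgeR), which was not called with DESeq2 (adjusted p = 0.194). Rxrb had 312, 295 and 324 reads in NP rats and 335, 375 and 357 in LP rats, a log2 fold change of 0.026 (adjusted p = 0.861, edgeR).

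Of the coregulators, the coactivator Ncoa3 fell by 0.30 on the log2 scale (adjusted p = 0.0237, edgeR), a call lost with DESeq2 and without LP replicate 1. Of the 9 textbook targets of retinoic acid in the tables, 8 were tested and 0 reached 0.05 by the adjusted p-value of edgeR or of DESeq2 (at an unadjusted p, 1 with edgeR, Rarres1, and 0 with DESeq2). Among all genes tested, 20.6% reached this limit with edgeR and 8.09% with DESeq2, so 0 of 8 says little of these targets. With the replicate block 1 of the 8 reached it, Rarres1, against 29.5% of all genes. The most counted of them, the transglutaminase Tgm2, had 592, 730 and 705 reads in NP rats and 616, 747 and 741 in LP rats, a log2 fold change of -0.10 (SE 0.084, adjusted p = 0.458, edgeR). Rarres1 had 31, 28 and 22 reads in NP rats and 14, 27 and 12 in LP rats, a log2 fold change of -0.81 (adjusted p = 0.0646, edgeR, and 0.0218 with the replicate block). Without LP replicate 2 it was past both criteria, at -1.21 (adjusted p = 0.0204, edgeR).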

How the data were processed

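Thyroid RNA of 6 rat samples (3 NP, 3 LP) was sequenced. The authors mapped reads to rat genome rn5 with TopHat 1.4.0, counted them with HTSeq-count on Ensembl release 81 gene models, and deposited raw read counts per gene. Whether counting used strand is not given in the sources used here. Replicates 2 and 3 of each group, indistinguishable by a chi-square test, were summed. LP was compared with NP by edgeR 4.0.16 (quasi-likelihood test, TMM, default filter on low counts, Benjamini-Hochberg adjustment over 12326 genes) in R 4.3.3, with DESeq2 1.42.0 as an alternative. Standard errors were obtained from each log2 fold change and the square root of its F statistic. Genes below the filter were taken from the fit without it. The steps were tested on simulated counts.

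The members and lists were chosen with earlier results of these data known. The genes named are the 9 members, pathway genes past both criteria, the most counted gene of each role, the Cyp26 and Rxr relatives, and others said to be named afterwards. A gene this rule names is not reported here. The comparison had no block, as the study names no pairing. Deviations from the group means correlated at 0.474, 0.210 and 0.175 between libraries of replicate numbers 1, 2 and 3. Between NP replicate 2 and LP replicate 3 the value was 0.202, and between NP replicate 3 and LP replicate 2 it was 0.203. Replicate 1 of a group against replicates 2 and 3 of the other lay between -0.320 and -0.292. The values thus set replicate 1 apart and do not pair 2 and 3 by number. A fit with the replicate number as a block was an alternative. Further alternatives were all 6 libraries as deposited, other filters and normalizations, and each library left out. Promoter sequences are from RefSeq, assembly GRCr8. Gene coordinates of rn5 and transcript lengths were not used here. Detection limits cover counting error only.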

Additional observations from a re-analysis of the deposited data

How the results depend on the processing

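A fit with a replicate block gave 639 genes up and 89 down past both criteria, against 606 and 63 without it, and the calls on both criteria among the 9 members and the 50 pathway genes did not change. By adjusted p alone, the pathway genes past 0.05 went from 9 to 14 with the block, Lrp2, Rarres1, Adh4, Dgat1 and Ncor1 being added, and were 4 with DESeq2 (of 39 tested there). The share of all genes past this limit was 20.6% without the block, 29.5% with it and 8.09% with DESeq2. Those calls on both criteria also did not change for the 6 libraries as deposited (575 up, 63 down) and for that table with the block (576 and 65). When the filter required on average 50 reads, 286 genes were up and 31 down. Cyp26b1, Cyp1b1 and Rxrg were then too low to be tested, leaving 0 members down and 0 pathway genes up. With DESeq2, 464 genes were up and 40 down. There 0 members were down (1 at an unadjusted p below 0.05, and 1 with edgeR) and 1 pathway gene was up. Omitting single replicates gave from 562 to 620 genes up and from 59 to 77 down. Among the members between 0 and 1 were up and 1 was down, and among the pathway genes between 1 and 2 were up and between 1 and 2 down. Aldh1a1 and Cyp1b1 were lost without NP replicate 1, and Rarres1 was gained without LP replicate 2. Leaving out a replicate 1 leaves a lone sample, assumed to vary like the others. Without the filter Ttr joined the genes up. Of the adjusted p-values over the 14 alternatives, those of Rdh11 ranged from 0.00607 to 0.565, of Lrp2 from 0.000109 to 0.459, of Rarres1 from 0.0127 to 0.532, of Dhrs3 from 0.000861 to 0.442 and of Ncoa3 from 0.000539 to 0.534. The sign turned for Cyp26a1 without NP replicate 1 (-0.38) and without LP replicate 2 (-0.051), against 0.92 without LP replicate 1, and for Rxrb without NP replicate 2 (-0.013), against 0.083 without NP replicate 1. Among the members, the sign also depended on the libraries kept for Aldh1a2, Crabp1, Rarb and Rarg. For Rarg it also turned with the replicate block (-0.014). The LP-to-NP ratio of Crabp2, scaled to library totals, was -0.49 on the log2 scale within replicate 1. Within replicates 2 and 3 it was 0.78. The log2 fold change of Cyp26b1 lay between -1.98 and -1.69 in all fits that gave a value. Its LP-to-NP ratios scaled to library totals were -1.67 on the log2 scale within replicate 1 and -2.04 within replicates 2 and 3. The cause of these shifts was not tested. The order of the members' levels, to be compared per length, was not run because transcript lengths were not used here. Scaling by DESeq2's size factors, or by TMM without muscle markers and called genes, changed no call among members or pathway genes. Depth limits Cyp26b1, Crabp2, Rarb and Crabp1 most, with at most 33 reads in any library.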

Other observations

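The 3 genes whose pattern over the 6 libraries was most like that of Cyp26b1 were Matr3 (Pearson r = 0.997), Ssr3 (r = 0.997) and Iqgap1 (r = 0.996), from log2(CPM + 1) among 11680 genes with a mean of at least 10 reads. Matr3 had 88, 105 and 102 reads in NP rats and 56, 53 and 66 in LP rats. The libraries fall into 2 groups and share depth differences and the close match of replicates 2 and 3, so r is a description.

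Ttr, the transthyretin that holds RBP4 in plasma, had 0 reads in each NP library and 4, 1 and 6 reads in the LP libraries, below the filter on low counts. The difference rests on 11 reads, and no fold is given. Acta1 was listed at 0 in LP replicate 1, where the skeletal muscle genes Atp2a1 and Actn3 had 3825 and 1216 reads. The counts of Acta1 thus did not follow those of the other muscle markers, and the cause was not tested.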
